A study of Mus musculus with 15 samples.

Results

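Bnip3, Bnip3l, Fundc1, Fam162a and Higd1a encode proteins of the mitochondrial membranes that are known for their part in the response of mitochondria to low oxygen. They were taken by gene symbol, as 5 of the 13172 genes listed for any group, and all 5 were among the 12721 genes listed for every group and tested. The cells were B16.F10, a mouse melanoma line, and all 15 libraries came from cultures in 1% oxygen, so no group shows the genes at ambient oxygen. The 5 groups held 3 libraries each. Control cells were untreated. NC_siRNA cells received a negative control siRNA and Hif1a_siRNA cells an siRNA against Hif1a, both at 25 nM. Dox cells received 0.25 µM doxorubicin, an anthracycline drug that damages DNA, for 24 h. Hif1a_siRNA_Dox cells received the Hif1a siRNA and, 24 h later, the same dose of the drug for 24 h. No group received the negative control siRNA with doxorubicin, so Hif1a_siRNA_Dox against Dox also compares transfected with untransfected cells. For the groups without the drug the time from transfection to harvest is not given in the sources used here. By their labels the libraries are biological replicates; separate cultures are not stated, and the p-values then cover the spread among these libraries, which may be technical.

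In hypoxia the transcription factor HIF-1, a dimer of the Hif1a and Arnt products, induces genes that lower the cell's use of oxygen. Part of that response is mitophagy, the delivery of mitochondria to lysosomes. BNIP3 and BNIP3L (also called NIX) sit in the outer mitochondrial membrane and bind the LC3 and GABARAP proteins of the growing autophagosome, and their genes are textbook HIF-1 targets. FUNDC1 is another outer membrane receptor of hypoxic mitophagy, which is known to be controlled in large part by phosphorylation of the protein. FAM162A is a hypoxia-induced mitochondrial protein linked to cell death signalling, and HIGD1A is a hypoxia-induced inner membrane protein that associates with the respiratory chain.

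HIF-1 binds DNA at short elements with the core letters ACGTG or GCGTG. Both words were searched on both strands, with overlapping matches allowed, in the 250 bases upstream of each start site of the RefSeq promoter table (build GRCm38.p6). Of 32851 such windows, 16.6% held ACGTG, 28.2% held GCGTG and 38.6% held either. Bnip3l was not searched, since the table used here gives it no window. The window of Bnip3 held 2 matches of ACGTG and 3 of GCGTG, and that of Fam162a held 1 and 5. The windows of Higd1a, with 0 and 2, and Fundc1, with 0 of both, lie within other annotated transcripts, whose outermost starts are 566 and 318 bases further upstream, so their counts do not describe the sequence before those starts. Among all windows 2.58% held at least 4 matches and 0.417% at least 6. The stretches of Bnip3 and Fam162a are printed because only these windows reach beyond the annotated exons. They lie on the minus strand at chr7:138909520-138909756 and chr16:36071595-36071811, are written 5′ to 3′, and stop short of the first annotated exon base. Capitals mark the matched letters in either orientation, so that CACGT is ACGTG and CACGC is GCGTG read on the other strand, and CACGTG counts as 2 matches. For Fam162a a further GCGTG match 19 bases upstream of the RefSeq start lies in an annotated exon and is not shown.
Bnip3: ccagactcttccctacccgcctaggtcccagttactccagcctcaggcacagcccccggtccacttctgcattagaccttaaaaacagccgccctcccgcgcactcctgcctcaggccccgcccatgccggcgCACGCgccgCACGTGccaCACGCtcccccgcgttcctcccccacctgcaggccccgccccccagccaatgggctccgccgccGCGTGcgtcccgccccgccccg
Fam162a: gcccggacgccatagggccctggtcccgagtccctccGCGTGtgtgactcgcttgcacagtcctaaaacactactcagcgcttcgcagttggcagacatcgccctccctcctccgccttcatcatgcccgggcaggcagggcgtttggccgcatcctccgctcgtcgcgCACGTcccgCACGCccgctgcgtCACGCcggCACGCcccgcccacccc
The matches of Bnip3 lie between 117 and 35 bases upstream of its RefSeq start, and those of Fam162a between 213 and 19 bases. A match is a description of the letters, not a site in use, and a window without one says only that these letters are not in it.

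Library totals ran from 23825110 to 28734303 counted reads. Levels are given as CPM, the count of a gene relative to the library's total, after TMM scaling, with the mean ± SD of 3 libraries. Changes are log2 fold changes ± SE from edgeR's quasi-likelihood test, called at an adjusted p under 0.05. The siRNA target checked the labels: Hif1a was at 289, 268 and 264 CPM in NC_siRNA and at 16.7, 15.9 and 18.9 in Hif1a_siRNA. It was at 138, 137 and 153 CPM in Dox and at 13.5, 11.6 and 14.3 in Hif1a_siRNA_Dox, so all 6 libraries with the Hif1a siRNA were low. All 7 melanocyte lineage markers (Mlana, Pmel, Tyr, Tyrp1, Dct, Mitf, Sox10) were listed. Their summed level, as CPM without TMM scaling, was between 8548 and 12480 in the libraries without doxorubicin and between 31800 and 41140 with it. None of 4 leukocyte, 3 endothelial and 4 epithelial markers was listed. Of 4 fibroblast markers Col1a1 and Pdgfra were listed. Their summed level, again as CPM without TMM scaling, was 2.54 to 5.87 without the drug and 33.0 to 85.6 with it. The part of these shifts in the results below was not tested, and in bulk RNA fewer cells with a transcript and less of it per cell cannot be told apart.

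Bnip3 (gene ID 12176, chr7:138890836-138909506 in GRCm38, minus strand, protein-coding) was among the most reduced genes in both single treatments. Its levels were 1260.3, 1401 and 1300 CPM in Control and 1369, 1413 and 1262 CPM in NC_siRNA. They were 145, 148 and 144 CPM after the Hif1a siRNA, 109, 120.2 and 129 CPM in Dox, and 37.7, 59.3 and 43.8 CPM in Hif1a_siRNA_Dox. The untreated and control siRNA libraries overlapped at the top, and each of the other groups lay below them without overlapping its neighbour, with the combined treatment lowest. Bnip3 fell by 3.21 ± 0.12 on the log2 scale in Hif1a_siRNA against NC_siRNA (9.24-fold, adjusted p = 2.0e-14) and fell by 3.47 ± 0.12 in Dox against Control (11.1-fold, adjusted p = 1.8e-15). In those comparisons 0.747% and 1.21% of the tested genes had a lower value. With both treatments its mean of 46.9 ± 11.1 CPM was 28.1-fold under that of Control. The negative control siRNA left it at 1348 ± 77.9 CPM against 1320.3 ± 72.3 in Control, a difference of 0.03 (95% interval -0.20 to 0.26, adjusted p = 0.82) that did not pass the test and was -0.02 with upper-quartile scaling.

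Bnip3l (gene ID 12177, chr14:66985238-67008877, minus strand, protein-coding) had 1465, 1436 and 1440 CPM in Control and 1119, 1049 and 1076 CPM in NC_siRNA. It had 149, 147 and 156 CPM after the Hif1a siRNA, 173, 178 and 184 CPM in Dox, and 63.3, 67.9 and 67.1 CPM in Hif1a_siRNA_Dox. All 5 groups were apart from each other, and the order of the knockdown and the drug was the reverse of that in Bnip3: Dox lay above Hif1a_siRNA. Bnip3l fell by 2.85 ± 0.06 in Hif1a_siRNA against NC_siRNA and fell by 3.02 ± 0.06 in Dox against Control (7.19-fold and 8.12-fold). The combined treatment left a mean of 66.1 ± 2.44 CPM, 21.9-fold under Control. In NC_siRNA against Control it fell by 0.42 ± 0.06 (adjusted p = 5.7e-07).

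Fundc1 (gene ID 72018, chrX:17519967-17572329, minus strand, protein-coding) was the member that did not take part in the large decreases. Its levels were 69.8, 71.9 and 69.6 CPM in Control, 67.2, 59.0 and 60.1 CPM in NC_siRNA and 80.8, 79.3 and 79.9 CPM in Hif1a_siRNA. They were 38.5, 35.6 and 39.2 CPM in Dox and 28.0, 30.0 and 38.3 CPM in Hif1a_siRNA_Dox. The knockdown libraries were the highest of all, and both doxorubicin groups were the lowest and overlapped each other. Fundc1 rose by 0.37 ± 0.09 in Hif1a_siRNA against NC_siRNA (1.29-fold, adjusted p = 0.000992) and fell by 0.90 ± 0.09 in Dox against Control (1.87-fold, adjusted p = 4.1e-09). Its range of group means was 2.49-fold, against 12.5-fold to 28.7-fold for the other members.

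Fam162a (gene ID 70186, chr16:36043844-36071561, minus strand, protein-coding) had 943, 901 and 893 CPM in Control and 645, 617 and 663 CPM in NC_siRNA. It had 75.2, 70.8 and 72.3 CPM after the Hif1a siRNA, 180.4, 186 and 194 CPM in Dox, and 89.5, 101 and 94.5 CPM in Hif1a_siRNA_Dox. The lowest group was the knockdown alone and not the combined treatment, and no groups overlapped. Fam162a fell by 3.14 ± 0.07 in Hif1a_siRNA against NC_siRNA and fell by 2.29 ± 0.06 in Dox against Control, which is 8.82-fold and 4.89-fold. In the drug comparison 6.40% of the tested genes had a lower value, against 0.802% in the knockdown.

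Higd1a (gene ID 56295, chr9:121848557-121857796, minus strand, protein-coding) had 1032, 1049 and 1072 CPM in Control and 570, 604 and 649 CPM in NC_siRNA. Its levels were 62.0, 59.3 and 59.6 CPM after the Hif1a siRNA, 147, 144 and 146 CPM in Dox, and 67.4, 75.6 and 82.1 CPM in Hif1a_siRNA_Dox. The groups took the same order as for Fam162a, again without overlap. Of the 5 genes Higd1a decreased most in the knockdown, where it fell by 3.33 ± 0.07 (10.1-fold, adjusted p = 9.6e-21), and it fell by 2.85 ± 0.07 with doxorubicin (7.21-fold). It also fell furthest of the set with the negative control siRNA, by 0.79 ± 0.07 (adjusted p = 6.0e-10), so that its mean was 608 ± 39.9 CPM in NC_siRNA against 1051 ± 20 in Control.

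**Figure D1:**
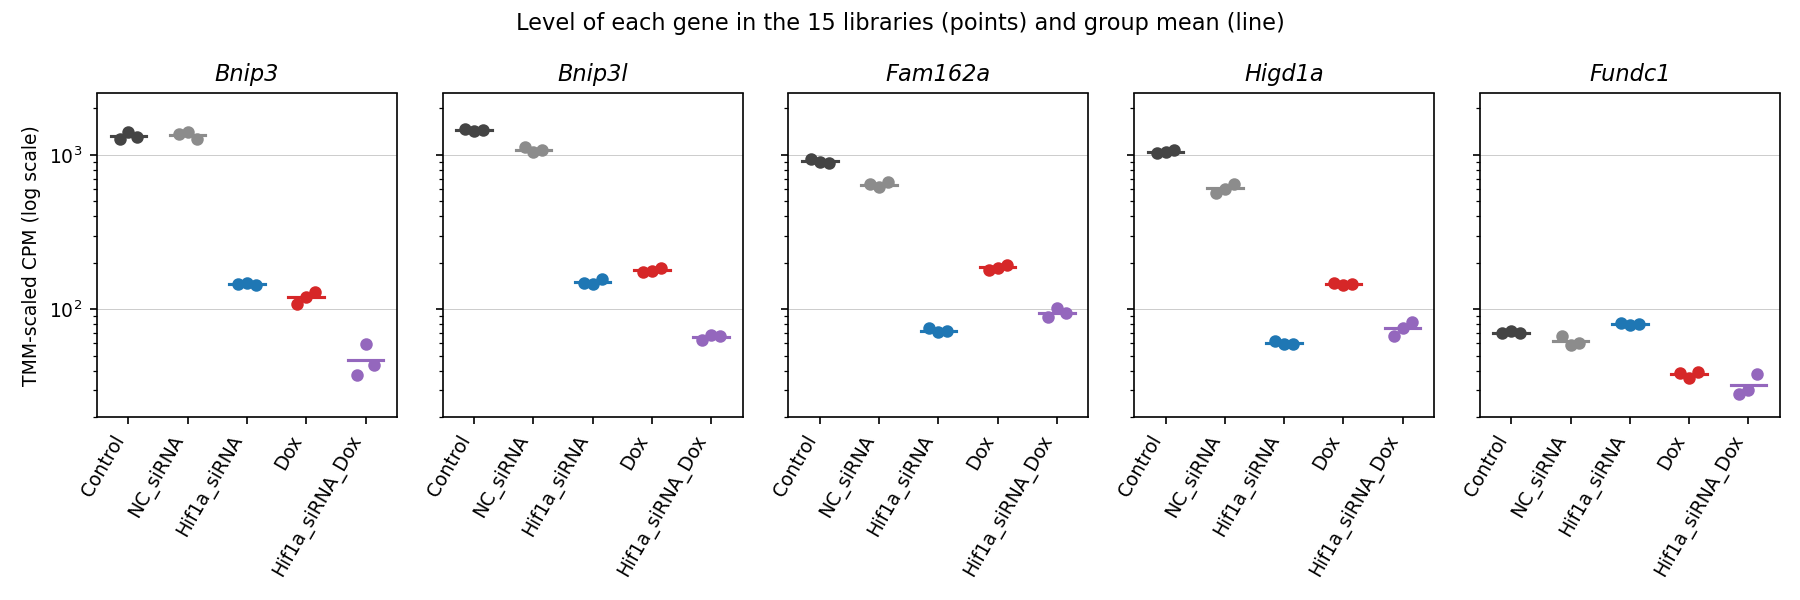
Level of each of the 5 genes in the 15 libraries, as TMM-scaled CPM on a log axis, by group; points are libraries and lines are group means. Bnip3, Bnip3l, Fam162a and Higd1a sit between 570 and 1465 CPM in Control and NC_siRNA and below 200 CPM in the other groups, while Fundc1 stays between 28.0 and 80.8 CPM throughout.

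Levels can be set between the genes only per length, which used the annotated exon bases of each gene (850 for Fam162a, 2265 for Bnip3, 2353 for Fundc1, 3040 for Higd1a and 3859 for Bnip3l). Those bases join the exons of all annotated transcripts, 4 for Fam162a and 7 for Higd1a. Which transcripts the cells used was not determined, so the order between genes rests on these lengths. In CPM per kilobase so defined Fam162a was highest in all 5 groups, with 1073 ± 31.5 in Control and 85.6 ± 2.66 in Hif1a_siRNA. Bnip3 followed with 583 ± 31.9 per kilobase in Control, then Bnip3l with 375 ± 4.14 and Higd1a with 346 ± 6.56. Fundc1 was lowest in Control with 29.9 ± 0.536. In Hif1a_siRNA the order at the bottom changed: Fundc1, at 34.0 ± 0.325 CPM per kilobase, lay above Higd1a at 19.8 ± 0.485.

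The comparison of Hif1a_siRNA with NC_siRNA asks which RNAs depend on Hif1a in hypoxic cells, both arms having been transfected. Of the 5 genes 4 fell and Fundc1 rose. This comparison called 67.7% of all genes, 31.2% lower and 36.4% higher, so a call alone is common. The log2 fold changes of the 4 lay between -3.33 and -2.85, beside a median of 0.06 over all tested genes. In Dox against Control, which asks what the drug does in untransfected hypoxic cells, all 5 fell, against 83.8% of all genes called and 39.8% called lower. The median of all genes was 0.10, and the 4 large decreases lay between -3.47 and -2.29. These comparisons share no library. A fall of at least 2 log2 units in both was found for 145 of the 12721 genes (1.14%), and Bnip3, Bnip3l, Fam162a and Higd1a were among them. That cutoff was not planned and lies just short of the smallest of their changes, -2.29, so the share is a description and no test. In the same libraries the transcript of Arnt, the DNA-binding partner of Hif1a, was at 205 ± 12.1 CPM in Control, 184 ± 4.1 in Hif1a_siRNA, 9.19 ± 0.867 in Dox and 12.3 ± 0.123 in Hif1a_siRNA_Dox. Hif1a itself fell by 0.61 ± 0.08 in Dox against Control. Epas1, which encodes the alpha subunit of HIF-2, fell by 1.84 ± 0.12 in the knockdown and rose by 0.97 ± 0.12 with the drug. The part of these transcripts in the members' levels was not tested.

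**Figure D2:**
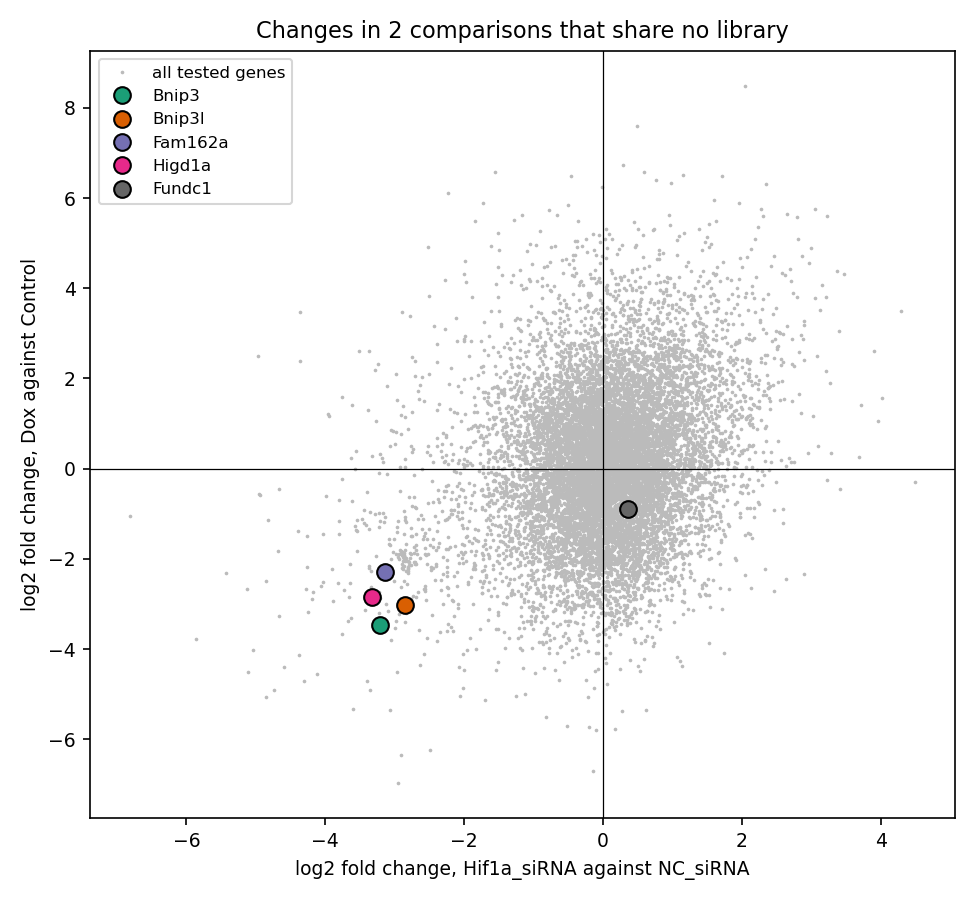
Log2 fold change in Hif1a_siRNA against NC_siRNA (x axis) and in Dox against Control (y axis) for all 12721 tested genes (grey) and the 5 genes (coloured). Bnip3, Bnip3l, Fam162a and Higd1a lie among the 145 genes at or under -2 on both axes; Fundc1 lies at 0.37 and -0.90.

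The 4 strongly reduced genes were lower still with both treatments than with the drug alone. In Hif1a_siRNA_Dox against Dox, Bnip3l fell by 1.43 ± 0.06 (2.70-fold), Bnip3 by 1.34 ± 0.11 (2.54-fold), Fam162a by 0.97 ± 0.06 (1.96-fold) and Higd1a by 0.96 ± 0.07 (1.94-fold). Their highest adjusted p was 4.9e-08, that of Bnip3. This comparison called 42.2% of all genes, 20.8% lower. Between 0.998% and 3.22% of genes had a lower value than these 4. As Dox cells were not transfected, the decreases with the negative control siRNA alone stand beside them: 0.42 for Bnip3l, 0.51 for Fam162a, 0.79 for Higd1a and none called for Bnip3.

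Fundc1 passed the threshold narrowly in Hif1a_siRNA_Dox against Dox, with a decrease of 0.24 ± 0.09 (adjusted p = 0.0474), although the groups overlapped. The call was lost without Hif1a_siRNA_Dox replicate 1 (-0.15, adjusted p = 0.231) or replicate 2 (-0.20, 0.129), and without Dox replicate 1 (-0.22, 0.114) or replicate 3 (-0.21, 0.135). It was also lost, at -0.24, without Control replicate 2 or 3 or NC_siRNA replicate 3, which enter through the shared estimate of spread. Without Hif1a_siRNA_Dox replicate 3 the value was -0.38 (adjusted p = 0.000931).

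With doxorubicin after the knockdown the 5 genes did not all move in 1 direction. In Hif1a_siRNA_Dox against Hif1a_siRNA, Bnip3 fell by 1.63 ± 0.11 (3.11-fold), Fundc1 by 1.32 ± 0.09 (2.50-fold) and Bnip3l by 1.19 ± 0.06 (2.28-fold). Fam162a and Higd1a rose, by 0.39 ± 0.06 (1.31-fold, adjusted p = 4.1e-06) and 0.31 ± 0.07 (1.24-fold, adjusted p = 0.000197). This comparison called 84.2% of all genes, 41.6% lower and 42.6% higher, so calls in both directions are common among any genes. Of all tested genes 58.9% had a lower value than Fam162a and 57.3% a lower value than Higd1a. The rises were small beside the 4.89-fold and 7.21-fold decreases of these 2 genes with the drug in untransfected cells.

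That contrast was tested as the difference of the doxorubicin effects, the drug's log2 change after the Hif1a siRNA minus its change in untransfected cells. The cells set against each other thus differ in transfection too, which cannot be told apart from the Hif1a siRNA. The difference called 58.6% of all genes, 26.3% higher and 32.3% lower. For 4 of the 5 genes it was positive, the drug having lowered them less after the knockdown, or raised them: 3.17 ± 0.10 for Higd1a, 2.68 ± 0.09 for Fam162a, 1.83 ± 0.08 for Bnip3l and 1.83 ± 0.16 for Bnip3. Of all tested genes 96.7% to 99.3% had a lower value. For Fundc1 it was negative, -0.42 ± 0.13 (adjusted p = 0.00821), from a change of -0.90 without the siRNA to -1.32 with it.

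The difference of the knockdown effects set the siRNA's change in drug-treated cells against its change in cells without the drug, with the unmatched transfection in the former. It called 57.8% of all genes, 27.0% higher and 30.8% lower. It was 2.38 ± 0.10 for Higd1a, 2.17 ± 0.09 for Fam162a, 1.86 ± 0.16 for Bnip3 and 1.41 ± 0.08 for Bnip3l, the decreases being smaller with the drug present. For Fundc1 it was -0.60 ± 0.13 (adjusted p = 0.00039), from 0.37 without the drug to -0.24 with it. These differences share libraries with the comparisons above and with each other, and are not further evidence beside them.

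The negative control siRNA against Control asks what transfection with that siRNA did, no group having been transfected without an siRNA. Of the 5 genes 3 were lower, where 66.8% of all genes were called and 33.7% called lower. Higd1a fell by 0.79 ± 0.07, Fam162a by 0.51 ± 0.06 and Bnip3l by 0.42 ± 0.06, while Bnip3 was at 0.03 ± 0.11. Fundc1 was at -0.18 ± 0.09 (adjusted p = 0.0791), which did not pass. It passed without NC_siRNA replicate 1 (-0.24, adjusted p = 0.0418) and without Hif1a_siRNA_Dox replicate 3 (-0.18, 0.0276). Hif1a itself rose by 0.33 ± 0.08 in the same comparison. In Hif1a_siRNA_Dox against Control, where 84.7% of all genes were called and 41.2% called lower, all 5 fell, with log2 fold changes of -4.81 for Bnip3, -4.45 for Bnip3l, -3.81 for Higd1a, -3.26 for Fam162a and -1.14 for Fundc1.

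**Figure D3:**
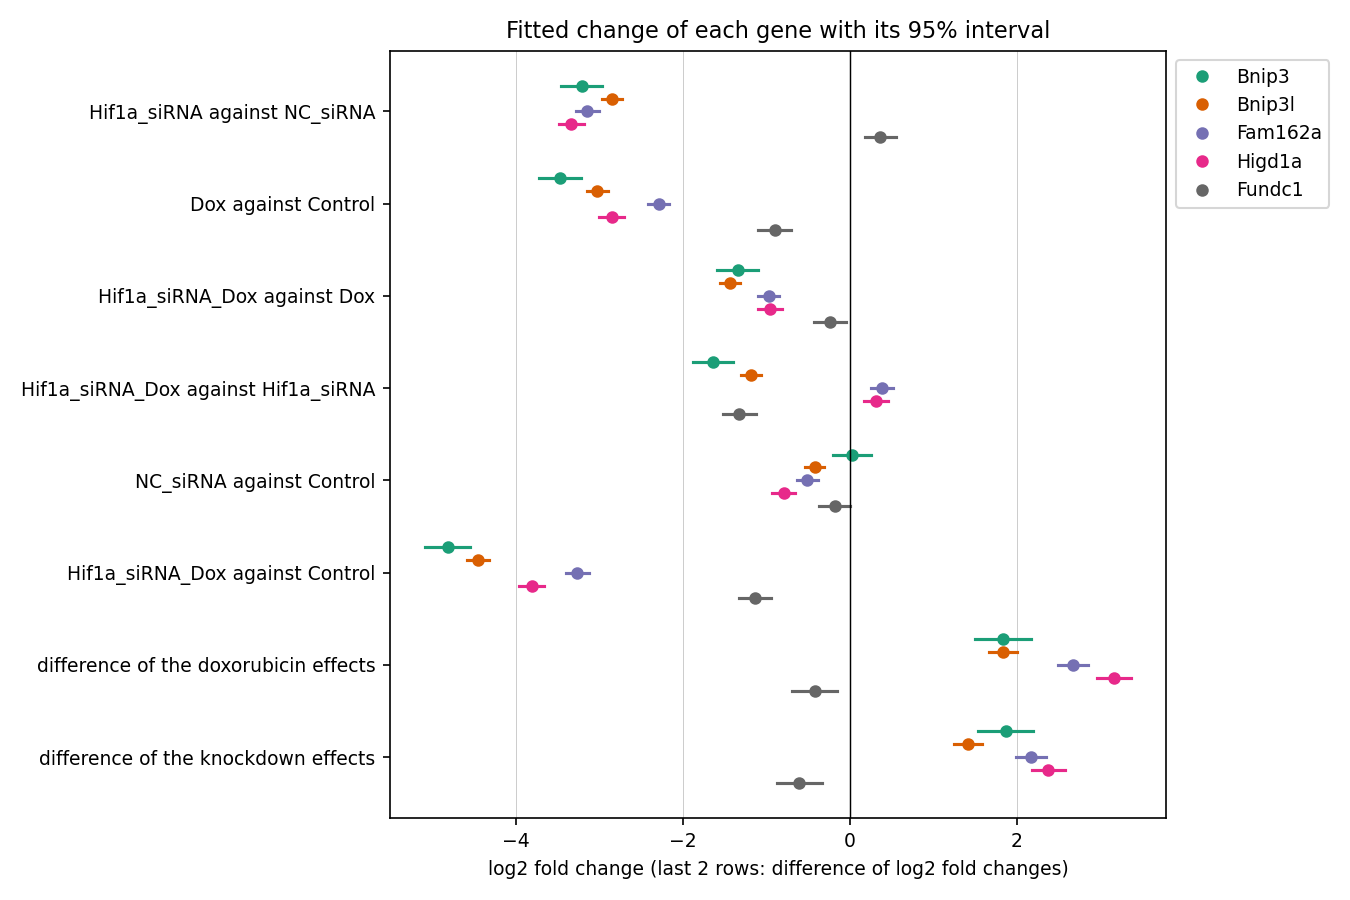
Fitted log2 fold change of each gene (points) with its 95% interval (bars) in 6 comparisons of groups, and in the lowest 2 lines of the plot the difference between 2 log2 fold changes. Fundc1 is apart from the other genes in the knockdown, where it is at 0.37, and Fam162a and Higd1a are above 0 in Hif1a_siRNA_Dox against Hif1a_siRNA.

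The receptors were also set against each other within a library, where scaling plays no part. These are log2 ratios of counts, not corrected for length, so only their change between groups can be read. Bnip3 to Bnip3l was -0.13 ± 0.09 in Control, 0.32 ± 0.10 with the negative control siRNA and -0.04 ± 0.06 with the Hif1a siRNA. With the drug alone it was -0.58 ± 0.08, and with both treatments -0.52 ± 0.29. The ratio was higher in every NC_siRNA library than in any Control library, by 0.45 on average, and lower in every Dox library than in any Control library, by 0.45. Fundc1 to Bnip3l moved far more, from -4.36 ± 0.04 in Control and -4.13 ± 0.06 in NC_siRNA to -2.24 ± 0.08 in Dox, -1.05 ± 0.21 in Hif1a_siRNA_Dox and -0.91 ± 0.05 in Hif1a_siRNA. Fundc1 reads were thus 4.87% of Bnip3l reads in Control and 53.2% in Hif1a_siRNA. With 3 libraries against 3 the exact two-sided permutation test cannot go below 0.1, and over 12 such tests its adjusted value was 0.133 wherever groups did not overlap, so no ratio passed. Bnip3 to Bnip3l did not separate Hif1a_siRNA_Dox from Dox (exact p = 0.9).

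Fam162a and Higd1a were compared with Bnip3l in the same way after their values had been seen, as a description. Fam162a to Bnip3l was -0.67 ± 0.03 in Control and -1.05 ± 0.06 in Hif1a_siRNA, and 0.07 ± 0.01 in Dox and 0.52 ± 0.05 in Hif1a_siRNA_Dox. Higd1a to Bnip3l went from -0.46 ± 0.04 and -1.32 ± 0.06 in the first pair to -0.29 ± 0.05 and 0.18 ± 0.10 in the second. For both, the Hif1a siRNA lay at the lowest ratio and the combined treatment at the highest. Higd1a to Fam162a stayed within -0.36 and 0.20 over the 5 group means.

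**Figure D4:**
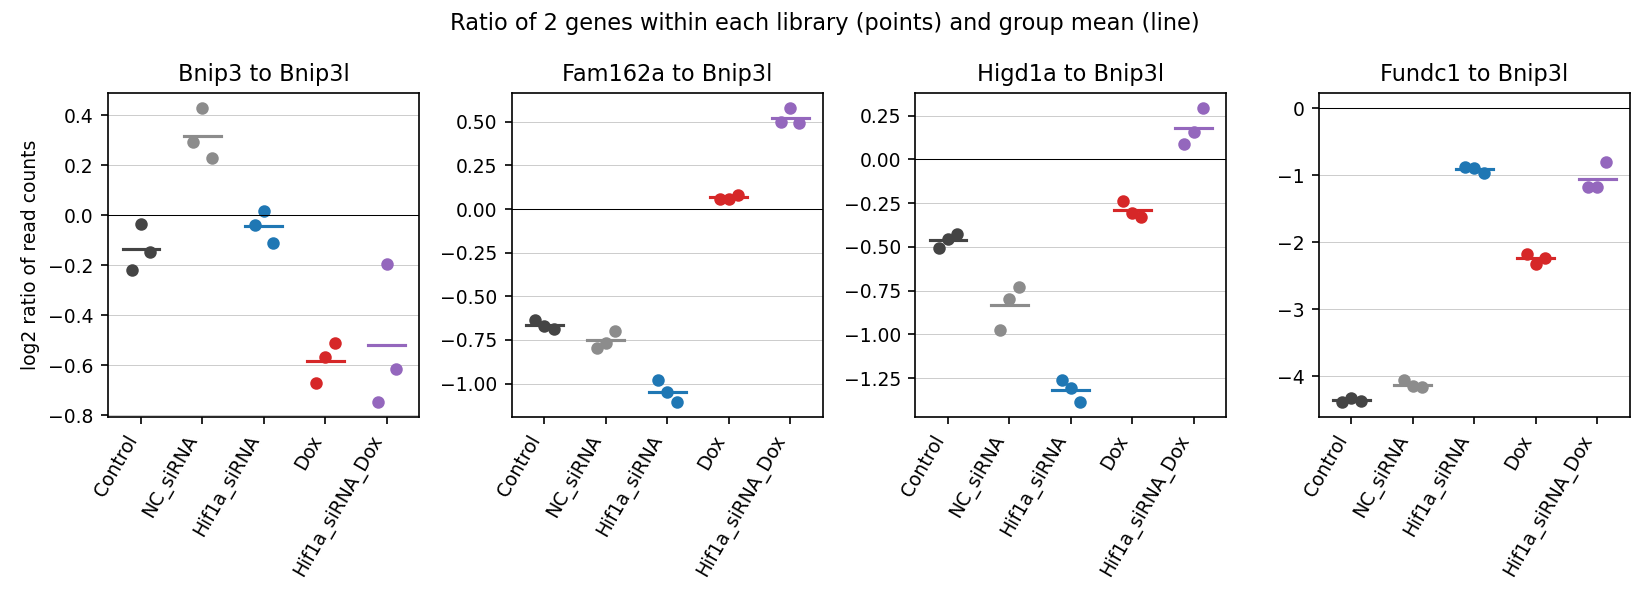
Log2 ratio of read counts of a gene to those of Bnip3l within each library (points) and group mean (line); the y axes differ between panels. Fundc1 to Bnip3l spans -4.36 to -0.91 over group means, and Fam162a to Bnip3l and Higd1a to Bnip3l are lowest in Hif1a_siRNA and highest in Hif1a_siRNA_Dox.

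Likeness of pattern was measured over the 15 libraries as the root mean square difference of log2 CPM centred per gene. It was taken among 9915 genes whose mean reached 5 CPM. Symbols that are clone, prediction or pseudogene names were left out, Bnip3l-ps among them, and ranks hold within this set. The 3 nearest genes were Eid1 (0.31), Bnip3l (0.35) and Pdk1 (0.45) for Bnip3, and Ncam1 (0.27), Pgm1 (0.34) and Grhpr (0.35) for Bnip3l, with Bnip3 ranked 4. For Fam162a they were Aldoc (0.15), Rnf126 (0.16) and Bsg (0.17), and for Higd1a Rnf126 (0.14), Fam162a (0.22) and Porcn (0.29). The set thus held a pair of close neighbours among the receptors and another in Fam162a and Higd1a, while the median gene lay 1.59 to 2.03 from these 4. Fundc1 was nearest to Ube2q2 (0.11), Arb2a (0.12) and Pdpk1 (0.12), and ranked 2383 or lower in nearness to each of the others. The median gene lay only 0.76 from Fundc1, so its small distances cannot be set beside those of the other members. Over the 5 group means in place of the libraries, 0 of the 3 nearest genes of Fundc1 remained, and Pdk1 for Bnip3 and Pgm1 for Bnip3l dropped out, while the other 10 named neighbours remained. Bnip3, with 1.67% to 3.76% of its reads in 3 near-identical copies, Bnip3l, with 2.09% to 3.74% in Bnip3l-ps, and Higd1a, with 1.55% to 2.97% in Gm9790, share reads that the counting could split. Summing the copies moved no log2 fold change of a member by more than 0.02. Antisense genes overlap Bnip3 (Gm45507) and Higd1a (Gm47112), and whether the counting used strand is not given in the sources used here.

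None of the other mitophagy receptors and adaptors tested fell by more than 0.69 on the log2 scale in the knockdown. Of 10 tested genes 5 rose, 3 fell and 2 did not pass in Hif1a_siRNA against NC_siRNA (median 0.11, against 0.06 for all genes). With doxorubicin, where 43.9% of all genes were called higher, 3 rose, 5 fell and 2 did not pass (median -0.27, against 0.10). Sqstm1, the ubiquitin-binding autophagy adaptor p62, rose by 1.54 ± 0.08 in the knockdown and fell by 3.06 ± 0.09 with the drug. Its mean was 795 CPM in NC_siRNA, 2310.0 in Hif1a_siRNA, 1389 in Control and 166 in Dox, so it moved in opposite directions where Bnip3 fell in both. Optn, another ubiquitin-binding adaptor, did the same, with 0.83 ± 0.09 and -2.10 ± 0.10. Fundc2, the paralog of Fundc1, fell in both, by 0.69 ± 0.07 and 0.53 ± 0.07, and so differed in direction from Fundc1 in the knockdown.

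Of 16 genes of the ubiquitin arm of mitophagy, 4 rose, 6 fell and 6 did not pass in the knockdown (median -0.07), and 7 rose and 9 fell with doxorubicin (median -0.54). Of all genes 36.4% were called higher and 31.2% lower in the knockdown (median 0.06), and 43.9% and 39.8% with the drug (median 0.10). The same shares and medians stand beside the counts of the other lists in these comparisons. Vdac1, an outer membrane channel that is a ubiquitination target in mitophagy, fell by 2.24 ± 0.06 in the knockdown, from 1557 to 331 CPM, and fell by 2.64 ± 0.06 with the drug, from 2595 to 416 CPM. Pink1, the kinase that marks damaged mitochondria, fell by 0.83 ± 0.08 in the knockdown and rose by 0.43 ± 0.08 with the drug. The deubiquitinase Usp8 fell by 2.02 ± 0.07 with the drug, and was at -0.10 ± 0.07 in the knockdown, which did not pass but did with DESeq2 (-0.15, adjusted p = 0.0449) and with only the compared groups fitted (-0.15, adjusted p = 0.00353).

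The LC3 and GABARAP proteins, to which BNIP3, BNIP3L and FUNDC1 bind, and the kinase complex that starts autophagy made up a list of 12 genes, which was described by counts and not tested as a list. In the knockdown 7 fell, 2 rose and 3 did not pass (median -0.20), where 31.2% of all genes were called lower. With doxorubicin 8 rose and 4 fell (median 0.56), where 43.9% of all genes were called higher. The 7 became 4 without Hif1a_siRNA replicate 2. Map1lc3b fell by 0.46 ± 0.07 and rose by 1.09 ± 0.07, and Map1lc3a fell by 0.60 ± 0.09 and rose by 0.78 ± 0.09. Gabarap fell in both, by 0.72 ± 0.07 and 0.86 ± 0.07. Ulk1, the initiating kinase, rose by 2.23 ± 0.12 with the drug.

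Mitochondrial fission and fusion genes showed 3 rises and 5 decreases among 12 in the knockdown (median -0.09), with 4 not passing, and 4 rises and 8 decreases with the drug (median -1.27). Dnm1l, the fission GTPase, and its membrane anchor Mff fell with doxorubicin, at -2.17 ± 0.07 and -2.12 ± 0.07, while Fis1, another fission protein, rose by 1.01 ± 0.07. The mitochondrial transport GTPases Rhot1 and Rhot2 went opposite ways in each comparison. Rhot1 rose by 0.99 ± 0.08 and fell by 2.90 ± 0.09, and Rhot2 fell by 0.89 ± 0.10 and rose by 1.38 ± 0.10. The mean of Rhot1 was 87.0 CPM in Control, 39.3 in NC_siRNA and 78.0 in Hif1a_siRNA, so its knockdown libraries lay below the untreated ones.

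The list named other mitochondrial HIF targets held both large decreases and a large increase. Whether each of its genes is a target of HIF in these cells was not tested. Of 10 tested genes 6 fell, 3 rose and 1 did not pass in the knockdown (median -0.72), and 7 fell and 3 rose with the drug (median -1.42). Pdk1 and Pdk3, kinases that shut off pyruvate dehydrogenase, had log2 fold changes of -3.64 ± 0.07 and -3.27 ± 0.07 in the knockdown and -2.54 ± 0.07 and -1.94 ± 0.07 with the drug, all called. The hexokinases Hk1 and Hk2, which bind mitochondria, fell in both, with -2.80 ± 0.07 and -2.56 ± 0.08 in the knockdown and -2.21 ± 0.07 and -2.67 ± 0.08 with the drug. Chchd4, which imports proteins into the intermembrane space, rose 4.94-fold in the knockdown (adjusted p = 2.5e-14) and 1.29-fold with the drug (adjusted p = 0.00982). Ghitm, an inner membrane protein, rose by 0.70 ± 0.06 and fell by 0.61 ± 0.06. Hspa9, the mitochondrial HSP70 chaperone, rose by 0.34 ± 0.06 in the knockdown and fell by 3.06 ± 0.07 with the drug. Its mean was 2442 CPM in Control, 1310 in NC_siRNA and 1662 in Hif1a_siRNA, so its knockdown libraries lay below the untreated ones.

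The respiratory chain genes listed as partners of the HIGD proteins lay between -0.45 and 0.68 in the knockdown, where Higd1a was at -3.33. Of 9 tested genes 3 rose, 4 fell and 2 did not pass in the knockdown (median -0.11), and 6 rose and 3 fell with the drug (median 0.39). Higd2a, the paralog of Higd1a, fell by 0.43 ± 0.09 in the knockdown and rose by 0.70 ± 0.08 with doxorubicin, where Higd1a fell. Cox4i1, a cytochrome c oxidase subunit, rose by 0.88 ± 0.06 with the drug, and Cox7a2l, a supercomplex assembly factor, fell by 0.62 ± 0.06.

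**Figure D5:**
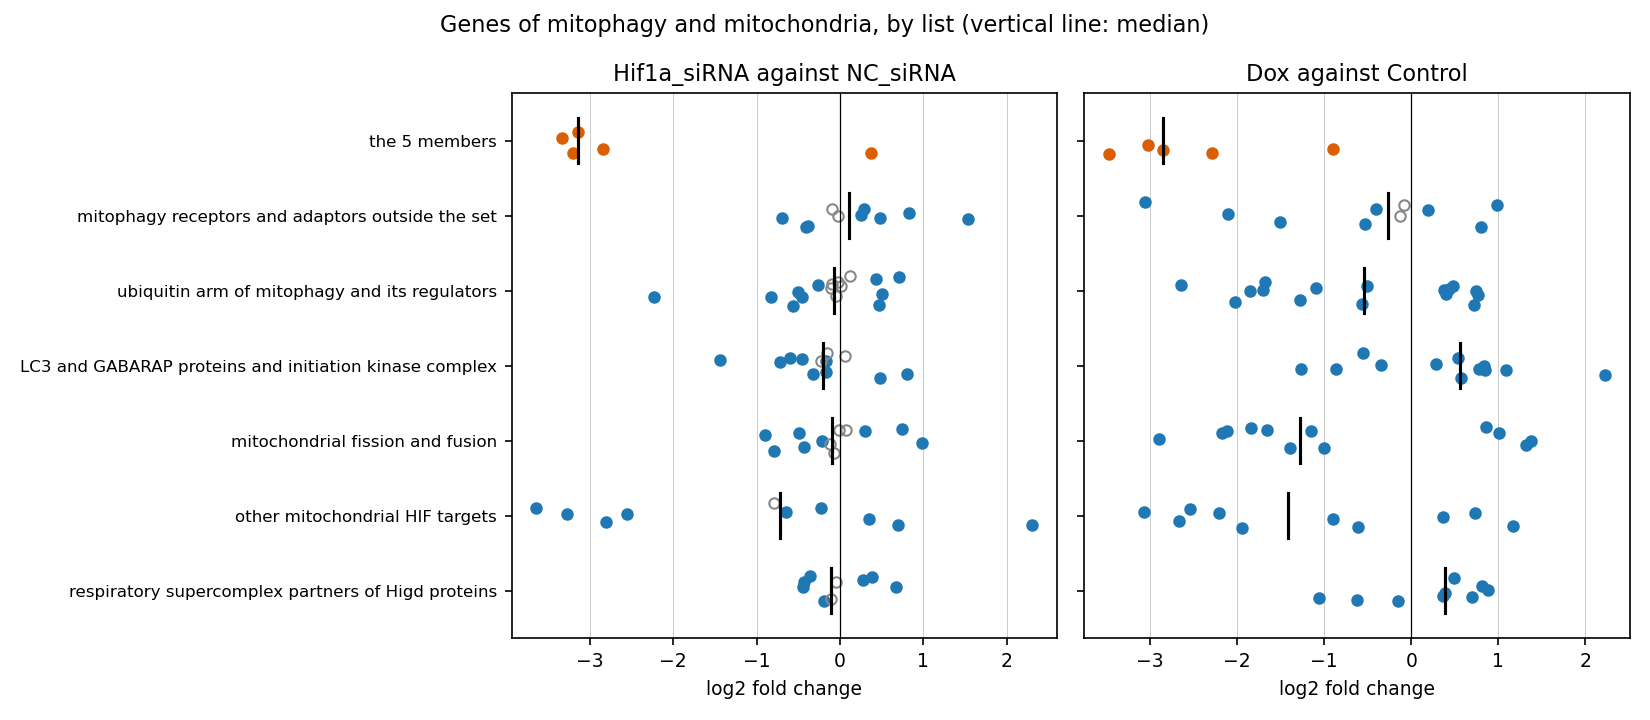
Log2 fold change of each gene of the set and of the 6 lists in Hif1a_siRNA against NC_siRNA (left) and Dox against Control (right); filled points passed the test, open points did not, and vertical lines are medians. The list medians lie between -0.72 and 0.11 on the left and between -1.42 and 0.56 on the right, against -3.14 and -2.85 for the 5 genes.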

How the data were processed

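RNA-seq of 15 libraries was deposited by the authors as raw read counts per gene, with no normalization. The submitters' processing notes give, without roles, HISAT2 2.1.0, StringTie 2.1.3b, Bowtie2 2.3.4.1, Trimmomatic 0.38, FastQC 0.11.7 and the mm10 build. Each group's tables list their own genes, and 451 genes not listed for every group were left untested. Repeated gene IDs (24 to 28 per table outside Control) were kept once, and 1491 missing symbols were filled by gene ID from the RefSeq table of GRCm38.

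The 12721 genes were fitted with edgeR 4.0.16 in R 4.3.3 (TMM, group term, robust quasi-likelihood F tests, 10 residual degrees of freedom), with Benjamini-Hochberg adjustment within each of 8 comparisons. The low-count filter removed 0 genes, and the common biological coefficient of variation was 0.091. CPM, ratios and pattern distances were computed from the counts, and near-identical copies were found with BLAST 2.17.0 (at least 90% identity over 200 bases of GENCODE M21 transcripts). Lengths are the union of GENCODE exons, and gene coordinates are those of the RefSeq table. Deeper genes have smaller counting error.

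Named genes were the 5 members, Hif1a, Arnt, the paralogs, the 3 nearest genes of each member and, from each list, the 4 with the smallest adjusted p in the knockdown and in the drug comparison, from which the text takes examples. Epas1, Bnip3l-ps, Chchd4 and Ghitm were named after their values were seen. The members and lists were chosen with earlier results of these data known. Calcoco2, Cox4i2, Higd1b and Higd1c were not tested. The marker lists were of melanocytes, leukocytes, fibroblasts, endothelium and epithelium.

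Alternatives were RLE and upper-quartile factors, DESeq2 1.42.0, limma-voom (limma 3.58.1), an adjusted p under 0.01, 2 other filters, a replicate block, fits of only the compared groups or of the genes listed for them, and leaving out each library. Summing copies was chosen after seeing the data. The procedure was tested on simulated data. Replicates of a group differed by more than sampling noise, and unevenly. The chi-square per degree of freedom between 2 replicates was 25.14 to 34.57 in Hif1a_siRNA_Dox, 3.56 to 4.77 in Hif1a_siRNA and 5.17 to 16.74 in the other groups. All groups shared 1 estimate of spread per gene, so SE and p-values of comparisons with Hif1a_siRNA_Dox may be too small, which was not tested.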

Additional observations from a re-analysis of the deposited data

Results flagged for a closer look

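All 5 genes differed in their response to one treatment according to whether the other was present, by a test of the difference itself. No group received the negative control siRNA with doxorubicin, so in both differences the Hif1a siRNA cannot be told apart from transfection. Higd1a differed most in the doxorubicin effect, by 3.17 on the log2 scale between cells with and without the Hif1a siRNA, followed by Fam162a with 2.68 and Bnip3 and Bnip3l with 1.83 each. For Fundc1 the difference was -0.42. In the knockdown effect with and without the drug, Higd1a differed by 2.38, Fam162a by 2.17, Bnip3 by 1.86, Bnip3l by 1.41 and Fundc1 by -0.60. Of all tested genes 58.6% passed the former test and 57.8% the latter, and both rest in part on the same libraries. No group of 4 or more replicates exists, so no library was tested as an outlier.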

How the results depend on the processing

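Of 40 fold changes (5 genes in 8 comparisons), 38 kept their side of the threshold under all 26 alternatives, and no called value changed direction. Bnip3 in NC_siRNA against Control, not called, went from 0.03 to -0.02 with upper-quartile factors. The calls that changed were Fundc1 in Hif1a_siRNA_Dox against Dox and in NC_siRNA against Control; the cause was not tested. The decrease of Fundc1 in Hif1a_siRNA_Dox against Dox (-0.24) lost its call with RLE factors (-0.19, adjusted p = 0.0932), with DESeq2 (-0.19, 0.0851), at an adjusted p under 0.01 (-0.24), and in fits of only the compared groups or of the genes listed for them (-0.23, 0.162 in both). Leaving out single libraries gave -0.38 to -0.15. In NC_siRNA against Control the value of Fundc1 (-0.18, not called) passed with upper-quartile factors (-0.23, 0.0259) and with only the compared groups fitted (-0.17, 0.0482); single libraries left out gave -0.24 to -0.14. Without Hif1a_siRNA_Dox replicate 2 the Bnip3 to Bnip3l ratio in Hif1a_siRNA_Dox against Dox turned from 0.06 to -0.10, neither called; single libraries left out gave -0.10 to 0.18.

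Same-numbered libraries did not deviate together (r from -0.162 to 0.087 over 30 pairs, 4 of 15 libraries closest to their own number), so the numbers do not pair them. With the replicate block Fundc1 in Hif1a_siRNA_Dox against Dox was at -0.24 (adjusted p = 0.0508), and no other call of the 5 genes changed.

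Upper-quartile factors raised the median of all genes by 0.13 in Dox against Control and 0.15 in Hif1a_siRNA_Dox against Hif1a_siRNA; in these comparisons the 5 genes kept their directions. Of 92 fold changes of other named genes 7 changed their call and 0 reversed. The 7 lower genes of the LC3 list in the knockdown became 4 at an adjusted p under 0.01. The members had at least 788 reads in every library.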

Other observations

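Transfection with the negative control siRNA moved the respiratory chain list in 1 direction. All 9 tested genes fell in NC_siRNA against Control (median -0.67, against -0.01 for all genes, of which 33.7% were called lower). Cycs, cytochrome c, fell by 0.97 ± 0.06, Uqcrc1, a complex III core protein, by 0.93 ± 0.08, Cox4i1 by 0.77 ± 0.06 and Higd2a by 0.42 ± 0.09. Of 10 tested genes of the list named other mitochondrial HIF targets, 3 rose, 5 fell and 2 did not pass in that comparison (median -0.25). Pdk1 and Hk2 rose, by 0.72 ± 0.07 and 0.94 ± 0.07. Pdk3, Hk1 and Hspa9 fell, by 0.30 ± 0.07, 0.31 ± 0.06 and 0.90 ± 0.06, in the comparison in which Higd1a, Fam162a and Bnip3l also fell.

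Doxorubicin after the Hif1a siRNA raised the outer membrane fission protein Fis1 by 1.85 ± 0.07, Map1lc3a by 1.39 ± 0.09 and Pink1 by 1.06 ± 0.08, while Sqstm1 fell by 3.34 ± 0.09 and Dnm1l fell by 2.17 ± 0.07. In that comparison, where 42.6% of all genes were called higher and 41.6% lower, 6 of 9 respiratory chain genes rose and 2 fell, beside the rise of Higd1a. Of 16 genes of the ubiquitin arm 2 rose and 11 fell. Pdk3 rose by 0.91 ± 0.07, as Fam162a and Higd1a did, while Pdk1 fell by 0.73 ± 0.08. The processed copy Bnip3l-ps followed Bnip3l and was at 52.4 ± 3.05 CPM in Control and 1.83 ± 0.679 CPM in Hif1a_siRNA_Dox. It is 99.4% identical to Bnip3l over 1131 aligned bases, so its counts cannot be told apart from misassigned Bnip3l reads.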
